A study of Mus musculus with 20 samples.

Results

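The 10 genes described here mark T lymphocytes and natural killer (NK) cells, and they were followed across mouse sarcomas and their lung metastases. They were chosen by symbol: Cd3e, Cd3g, Cd4, Cd8a and Lck as T lineage and receptor signalling genes, and Ccl5, Gzma, Gzmb, Prf1 and Nkg7 as cytotoxic effector and chemokine genes. All 10 were found among the 51826 genes of the deposited count table. The tissues were 14 lung metastases and the 6 primary tumours with which the labels match them. There were 4 metastases in set 1 and in set 2, 2 in set 3 and in set 6, and 1 in set 4 and in set 5. A name such as metastasis 2-1 gives the set and then the number in the labels, with x where set 5 has no number. All 20 tissues came from mice of mixed background, the only genotype given, and the labels name no treatment, age, tumour-inducing allele or tumour site. No label says which tissues came from separate animals, so p-values here describe spread between samples that may not be independent animals.

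T cells recognise antigen through a receptor whose signal runs through the CD3 chains, and Lck is the kinase that starts that signal after the coreceptors CD4 and CD8 bind. Killer T cells and NK cells store perforin and granzymes in granules and release them onto a target cell. Perforin opens the target membrane and granzymes enter and start cell death. These transcripts are commonly read in whole tumours as signs of T and NK cells, and the lung holds resident cells of both kinds.

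Libraries held 20603620 to 36824370 counts. Primary tumours 4 and 6 stood apart from the other libraries. The pan-leukocyte gene Ptprc had 30.9 to 261 CPM (TMM-scaled counts relative to library size) in the metastases, against 203 to 348 CPM in primary tumours 1, 2, 3 and 5 and only 1.02 and 0.438 CPM in primary tumours 4 and 6. The summed level of 12 skeletal muscle genes was 7.76 CPM or less in primary tumours 4 and 6 and 4450 to 9950 CPM in the other primary tumours. Calls on the 10 genes are given with and without sets 4 and 6. Primary tumours 2 and 3 were the most alike pair among the primary tumours (Pearson r = 0.990 over log2 CPM of 19081 genes), but they differed by more than sampling noise and were kept as separate samples. In whole tissue, fewer cells of a type and less RNA per cell cannot be told apart.

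The promoters of the cytotoxic genes are shown because Gzma, Gzmb, Prf1 and Nkg7 were high in the same tumours, and that of Cd8a as a lineage gene for comparison. Each line holds RefSeq sequence of GRCm38.p6 from 250 bases before to 50 bases after the RefSeq start, in the direction of the gene. Capitals mark TGTGGT, the core bound by Runx factors, or its reverse complement ACCACA. The windows are chr13:113100932-113101231 (minus strand) for Gzma, chr14:56262285-56262584 (minus) for Gzmb, chr10:61297586-61297885 (plus) for Prf1, chr7:43436888-43437187 (plus) for Nkg7 and chr6:71373177-71373476 (plus) for Cd8a.
Gzma: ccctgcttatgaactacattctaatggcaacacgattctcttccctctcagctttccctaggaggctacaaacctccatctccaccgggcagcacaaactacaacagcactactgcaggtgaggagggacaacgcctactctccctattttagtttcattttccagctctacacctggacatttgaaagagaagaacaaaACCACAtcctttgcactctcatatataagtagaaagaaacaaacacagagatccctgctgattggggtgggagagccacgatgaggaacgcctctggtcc
Gzmb: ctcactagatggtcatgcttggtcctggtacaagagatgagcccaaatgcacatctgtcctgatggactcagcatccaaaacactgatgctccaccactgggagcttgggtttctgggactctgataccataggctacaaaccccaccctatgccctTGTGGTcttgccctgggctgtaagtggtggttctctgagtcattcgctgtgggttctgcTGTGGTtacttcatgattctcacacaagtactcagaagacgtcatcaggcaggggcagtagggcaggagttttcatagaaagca
Prf1: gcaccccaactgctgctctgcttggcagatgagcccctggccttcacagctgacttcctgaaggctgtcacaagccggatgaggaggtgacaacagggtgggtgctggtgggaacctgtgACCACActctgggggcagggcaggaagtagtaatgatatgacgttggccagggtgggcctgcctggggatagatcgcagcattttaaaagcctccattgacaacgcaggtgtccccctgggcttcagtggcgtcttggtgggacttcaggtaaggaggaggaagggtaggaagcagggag
Nkg7: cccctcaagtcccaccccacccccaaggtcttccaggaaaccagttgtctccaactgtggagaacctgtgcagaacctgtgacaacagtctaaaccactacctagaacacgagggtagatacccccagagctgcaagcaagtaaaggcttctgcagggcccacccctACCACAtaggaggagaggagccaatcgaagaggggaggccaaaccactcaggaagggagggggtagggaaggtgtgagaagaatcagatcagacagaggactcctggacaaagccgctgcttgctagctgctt
Cd8a: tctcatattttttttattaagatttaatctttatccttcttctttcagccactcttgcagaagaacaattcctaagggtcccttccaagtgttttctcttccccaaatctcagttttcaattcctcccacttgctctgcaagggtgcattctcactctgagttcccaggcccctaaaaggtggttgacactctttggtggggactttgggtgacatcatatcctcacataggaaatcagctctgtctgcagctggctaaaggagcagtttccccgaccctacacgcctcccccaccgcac

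RefSeq windows were matched for 8 of the 10 genes, with 2 for Lck. The Runx core was present on either strand in 4 of 4 cytotoxic windows, with 2 matches in Gzmb, and in 1 of 5 lineage windows, that of the upstream Lck start. Of all 32851 promoter windows of this length, 16.8% held it. Further motifs were searched on both strands, none overlapping the Runx matches. The Ets core GGAAGT was in the windows of Prf1, Cd3e and both Lck starts (23.8% of all windows), and the T-box core AGGTGTG was in that of Nkg7 (5.84%). TGACG, the core of the cyclic AMP response element, was in those of Gzmb, Prf1 and Cd3e (20.8%). A match is a string of letters in the window and no measure of binding.

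Per kilobase of exon, the scale on which levels of different genes can be set side by side, Ccl5 was the highest of the 10 in metastases, with a median of 1.66 CPM per kb. The medians of the other 9 in metastases lay between 0.0802 CPM per kb for Prf1 and 0.343 for Lck. In the 6 primary tumours Ccl5 was again highest at 10.8 CPM per kb, and Cd3e lowest at 0.214. In primary tumours 1, 2, 3 and 5 the medians of Gzmb (14.7 CPM per kb), Prf1 (14.5), Gzma (14.2) and Ccl5 (13.8) were close together, above Nkg7 (5.73), Lck (1.68), Cd8a (0.910), Cd4 (0.650), Cd3g (0.564) and Cd3e (0.284). The first 4 are not ordered beyond their spread, since their ranges over these tumours overlapped.

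**Figure D1:**
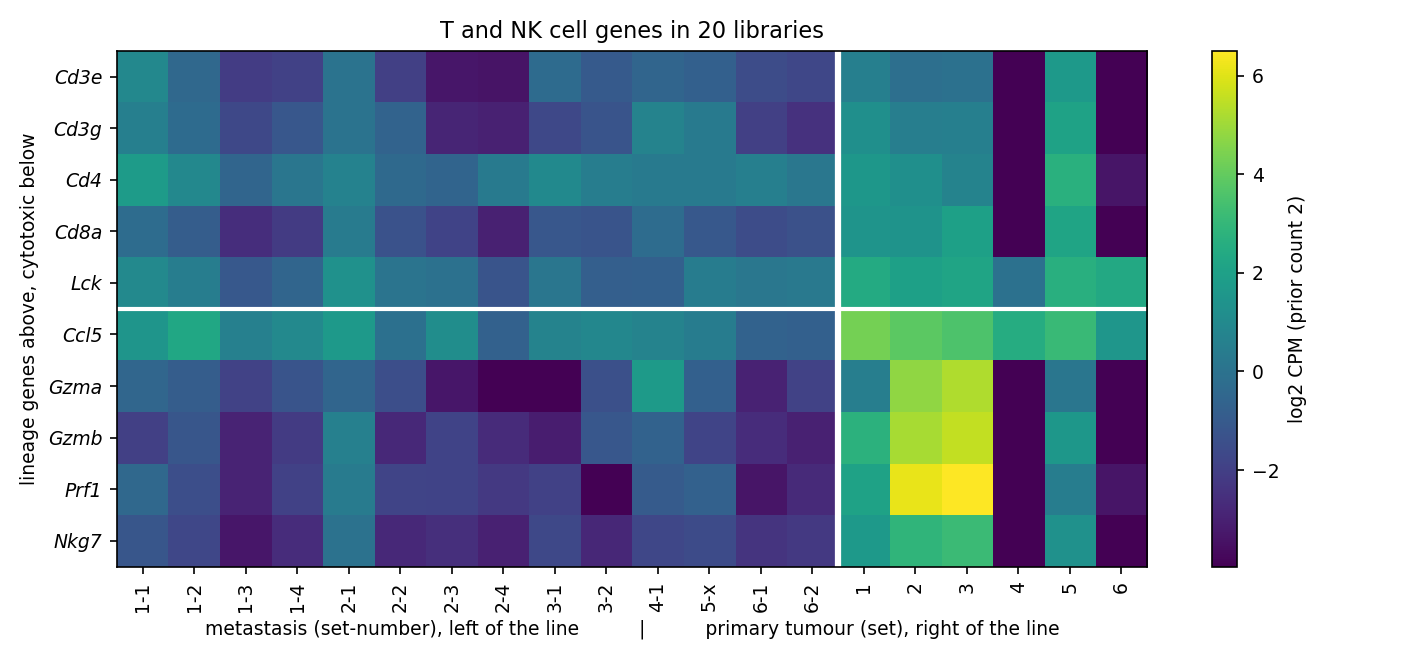
Colour gives log2 CPM (prior count 2) of the 10 genes, with the 14 metastases left of the white line and the 6 primary tumours right of it; lineage genes are above the horizontal line and cytotoxic genes below. Prf1, Gzmb and Gzma reach their highest levels in primary tumours 2 and 3, and 8 of the 10 genes are at or near the lowest colour in primary tumours 4 and 6, with Lck and Ccl5 the exceptions.

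Both CD3 genes among the members were at 4.12 CPM or less in every library. Trbc2, a receptor beta constant gene chosen after its values were seen, had 16.9 CPM in metastasis 4-1. It had 20.9 CPM in primary tumour 5 and 12.5 CPM in primary tumour 4. Other receptor genes were lower, with at most 2.35 CPM of Trac, 1.22 of Trbc1 and 1.29 of Cd3d in metastases. Their highest values in primary tumours 1, 2, 3 and 5 were 3.27, 3.86 and 1.91 CPM. Primary tumour 4 had 234 counts of Trbc2, beside 0 of Trac and Cd3d and 1 of Trbc1. Whether Trbc2 counts came from T cells was not tested. Cd3e encodes the CD3 epsilon chain (chromosome 9, 44998740 to 45009627). Its level ran from 0.0301 to 1.84 CPM in metastases with a median of 0.359, against 0 to 3.24 CPM in primary tumours with a median of 0.872. Primary tumour 5 was highest and primary tumours 4 and 6 had 0 counts, which allows up to 0.161 and 0.101 CPM. The groups overlapped, although 12 of 14 metastases lay below primary tumours 1, 2, 3 and 5. Cd3e did not pass the test (log2 fold change of metastases over primary tumours -0.46 ± 0.869 SE, adjusted p = 0.775, edgeR quasi-likelihood test with the matched set as a block and Benjamini-Hochberg adjustment over 18452 genes, n = 14 and 6), nor without sets 4 and 6 (-1.34 ± 0.787, adjusted p = 0.319).

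Cd3g, the CD3 gamma chain, lies near Cd3e on chromosome 9 (44969572 to 44980431). It ran from 0.0602 to 1.57 CPM in metastases (median 0.373), against 0 to 4.12 CPM in primary tumours (median 1.37). Metastasis 4-1 was the highest metastasis, the groups overlapped, and primary tumours 4 and 6 again had 0 counts. Its log2 fold change of -0.98 ± 0.800 did not pass (edgeR adjusted p = 0.457), nor did its value of -1.83 ± 0.591 without sets 4 and 6 (adjusted p = 0.0670).

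Cd4, the coreceptor of helper T cells (chromosome 6, 124864692 to 124888221), had the log2 fold change closest to 0 of the 10 genes. It ran from 0.611 to 3.42 CPM in metastases (median 1.20), against 0 to 6.30 CPM in primary tumours (median 1.95). The groups overlapped, with 11 of 14 metastases below primary tumours 1, 2, 3 and 5 and all of them above primary tumours 4 and 6. The log2 fold change was -0.08 ± 0.759 (edgeR adjusted p = 0.960) and -1.03 ± 0.484 without sets 4 and 6 (adjusted p = 0.204), while its mean difference over 6 sets was 0.56 ± 2.77 log2 CPM (SD, lower in 3 of 6). The same mean was -0.13 for Cd3e and -0.22 for Cd3g. In set 3 the metastases averaged 1.64 CPM and the primary tumour had 1.61 CPM.

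Cd8a, the coreceptor chain of killer T cells (chromosome 6, 71373427 to 71379173), separated the groups more clearly. It ran from 0.0602 to 1.26 CPM in metastases with a median of 0.342. Primary tumours 1 to 6 had 2.70, 2.57, 3.92, 0, 4.36 and 0 CPM in that order. All 14 metastases lay below primary tumours 1, 2, 3 and 5, so the groups overlapped only through primary tumours 4 and 6. Over all sets the log2 fold change of -1.98 ± 0.879 did not pass (edgeR adjusted p = 0.148). It passed without sets 4 and 6 (-2.96 ± 0.600, adjusted p = 0.0103), without set 4 alone (-2.42, adjusted p = 0.0493) and with no replicate block (-2.41, adjusted p = 0.0303).

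Lck encodes the Src-family kinase of the T cell receptor (chromosome 4, 129548344 to 129573641). It ran from 0.361 to 2.45 CPM in metastases (median 1.01), against 5.40, 3.93, 4.44, 0.910, 6.16 and 5.02 CPM in primary tumours 1 to 6. Every metastasis lay below its own primary tumour, and only primary tumour 4 fell within the range of the metastases. Lck fell 4.10-fold (log2 fold change -2.04 ± 0.381, edgeR adjusted p = 0.00369), with a log2 fold change of -2.21 ± 0.465 without sets 4 and 6 (adjusted p = 0.0121). The mean difference over sets was -1.99 ± 0.667 log2 CPM (SD, n = 6 sets), lower in 6 of 6, with an exact two-sided sign-flip p of 0.03125, the smallest that 6 sets allow. Primary tumour 6 had 149 Lck counts beside 0 counts of Cd3e, Cd3g and Cd8a, and primary tumour 4 had 17.

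**Figure D2:**
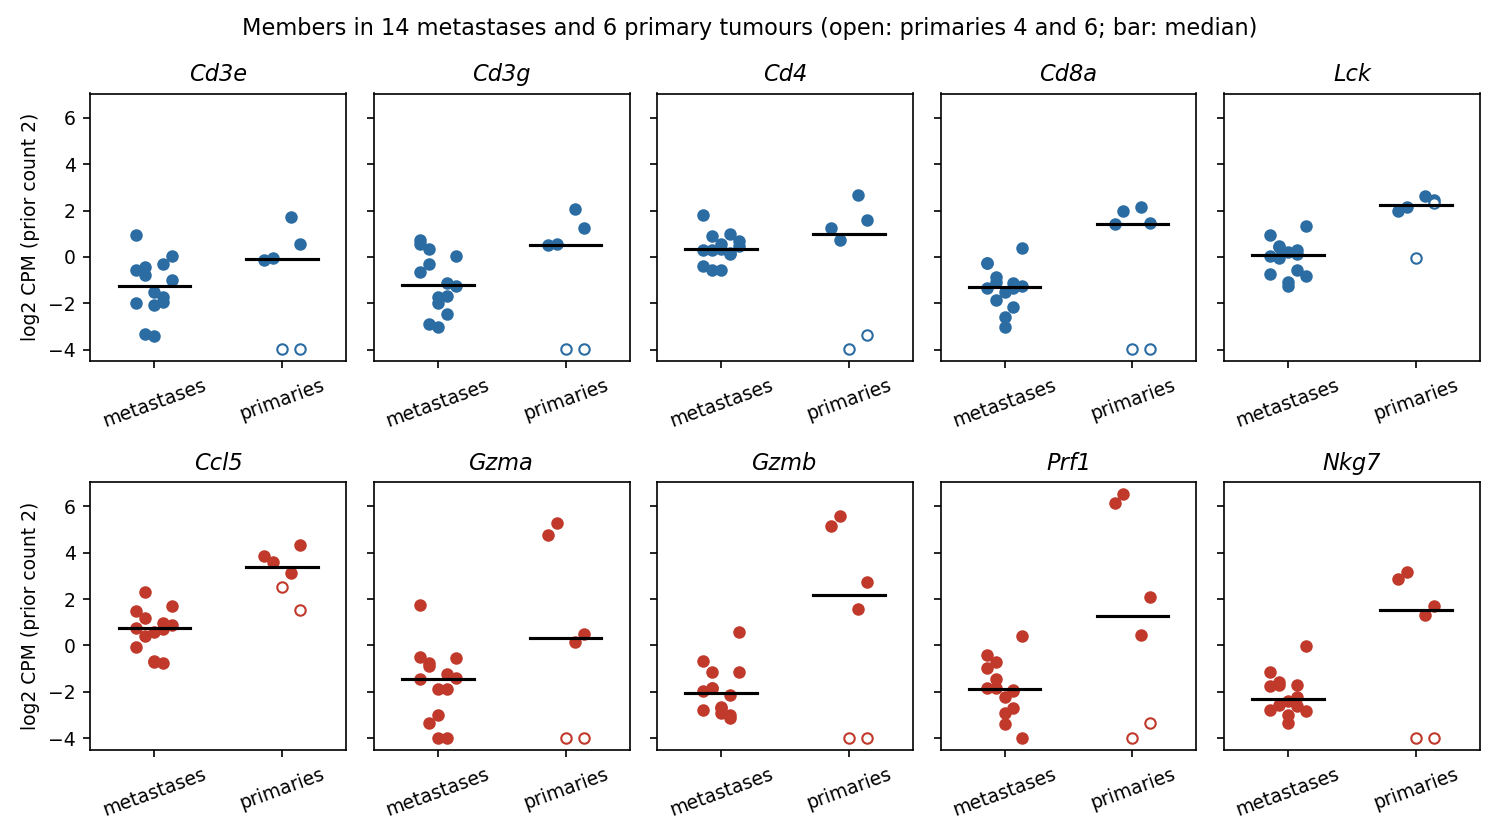
Each point is the log2 CPM (prior count 2) of 1 library, with metastases left and primary tumours right in each panel, primary tumours 4 and 6 as open points and the median as a bar. The metastases lie below every filled primary point for Cd8a, Lck, Ccl5, Gzmb, Prf1 and Nkg7, and the open points lie among or above the metastases for Lck and Ccl5 and at or near the bottom elsewhere.

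Ccl5, a chemokine that T and NK cells secrete and that draws more of them into tissue, differed most firmly (chromosome 11, 83525778 to 83530518). It ran from 0.534 to 4.84 CPM in metastases (median 1.60), against 20.1, 14.5, 12, 5.67, 8.78 and 2.83 CPM in primary tumours 1 to 6. Each metastasis lay below its own primary tumour, and only primary tumour 6 fell within the range of the metastases. It fell 6.46-fold (log2 fold change -2.69 ± 0.331, edgeR adjusted p = 0.000384), with a mean difference of -2.64 ± 0.558 log2 CPM over 6 sets (SD, exact two-sided sign-flip p = 0.03125). The edgeR log2 fold change was -2.92 ± 0.397 without sets 4 and 6 (adjusted p = 0.00134). Ccl5 was past the threshold under all 31 alternatives run, with log2 fold changes of -3.26 to -2.39 and adjusted p of 3.87e-12 to 0.0148.

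Gzmb, the granzyme that cleaves after aspartate and activates caspases (chromosome 14, 56258838 to 56262260), ran from 0.0497 to 1.46 CPM in metastases with a median of 0.179. Primary tumours 1 to 6 had 6.66, 35.6, 47.2, 0, 2.92 and 0 CPM. All 14 metastases lay below primary tumours 1, 2, 3 and 5. Several lay under the level that the 0 counts of primary tumours 4 and 6 allow. Gzmb fell by 4.85 ± 1.10 on the log2 scale (edgeR adjusted p = 0.00984), and by 5.91 ± 0.741 without sets 4 and 6 (adjusted p = 0.000792). The call was lost without set 1 (log2 fold change -4.86, adjusted p = 0.0988) and without set 2 (-4.12, adjusted p = 0.0998). It was also lost with the set as a random effect (-3.40, limma adjusted p = 0.0713), with the counts of a set's metastases added up (-3.87, 0.380) and with only metastasis 1 of a set kept (-3.56, 0.382).

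Prf1, perforin (chromosome 10, 61297833 to 61304680), had the widest range of the 10. It ran from 0 to 1.26 CPM in metastases with a median of 0.207, against 4.20, 70.8, 91.1, 0, 1.33 and 0.0337 CPM in primary tumours 1 to 6. Metastasis 2-1 at 1.26 CPM nearly met primary tumour 5 at 1.33 CPM, and no metastasis reached primary tumours 1, 2 or 3. Prf1 fell by 5.06 ± 1.31 on the log2 scale (edgeR adjusted p = 0.0187), and by 6.40 ± 1.08 without sets 4 and 6 (adjusted p = 0.00387). Without set 1 the adjusted p was 0.0980 (log2 fold change -5.56) and without set 2 it was 0.227 (-3.22). The call was also lost with the set as a random effect (-3.74, limma adjusted p = 0.0542), with the counts of a set's metastases added up (-3.10, 0.487), with only metastasis 1 of a set kept (-2.86, 0.405) and with no filter on low counts (-5.10, 0.0563).

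Nkg7, a granule membrane protein of killer lymphocytes (chromosome 7, 43437073 to 43438249), ran from 0.0344 to 0.926 CPM in metastases (median 0.138). Primary tumours 1 to 6 had 3.18, 7.29, 8.93, 0, 2.44 and 0 CPM. As for Gzmb, all metastases lay below primary tumours 1, 2, 3 and 5, and some under the level that 0 counts in the others allow. Its fall of 3.51 ± 0.926 on the log2 scale passed (edgeR adjusted p = 0.0205), but not without set 3 (log2 fold change -2.99, adjusted p = 0.0569). Without set 1, set 2, metastasis 1-1 or metastasis 2-1 it was too low to be tested. Nkg7 thus passed the filter on low counts mainly through primary tumours, which favours a fall. It did not pass with the set as a random effect (-2.47, limma adjusted p = 0.109) or with only metastasis 1 of a set kept (-2.15, 0.437), and it fell by 4.48 ± 0.671 on the log2 scale without sets 4 and 6 (adjusted p = 0.00228).

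Gzma, the granzyme that cleaves after basic residues (chromosome 13, 113093825 to 113100981), ran from 0 to 3.29 CPM in metastases (median 0.309). Primary tumours 1 to 6 had 1.36, 27.2, 38.2, 0, 1.03 and 0 CPM. Metastasis 4-1 was the highest metastasis and exceeded primary tumours 1 and 5, and the other 13 lay below primary tumours 1, 2, 3 and 5. The log2 fold change of -4.07 ± 1.60 did not pass (edgeR adjusted p = 0.104). It passed without sets 4 and 6 (-5.48 ± 1.19, adjusted p = 0.0139), without set 4 alone (-4.76, adjusted p = 0.0324), with no replicate block (-4.47, adjusted p = 0.0111) and by DESeq2 over all sets (-4.19, adjusted p = 0.00327).

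Over all sets, 5 of the 10 genes fell in metastases (Lck, Ccl5, Gzmb, Prf1 and Nkg7) and 0 rose. Of all 18452 genes tested 6.44% fell and 7.34% rose. Nkg7 passed the filter on low counts mainly through primary tumours, so its call is no separate evidence. The median log2 fold change was -0.98 over the 5 lineage genes and -4.07 over the 5 cytotoxic genes, against 0.00 over all genes. Without sets 4 and 6, Cd8a and Gzma were called as well, which makes 7 of 10, beside 5.66% of 18804 genes. For 6 of the 10 genes all 14 metastases lay below primary tumours 1, 2, 3 and 5, as did 3.34% of all genes tested. Against all 6 primary tumours 0 of the 10 and 0.412% of all genes were separated in this way. Primary tumours 4 and 6 were left out for low leukocyte and muscle transcripts, and most of the 10 genes had few or no counts there. Shares of all genes are therefore no even comparison for the counts without these tumours. With the metastases of each set summed to 1 sample, Ccl5 alone fell among 9 tested (0.357% of 17623 genes fell), and Lck had an adjusted p of 0.0557. The exact two-sided sign-flip p over 6 sets was 0.15625 for Gzmb, 0.1875 for Prf1 and 0.15625 for Nkg7. For Gzma, Cd8a, Cd4, Cd3e and Cd3g it was 0.375, 0.53125, 0.59375, 0.875 and 0.90625.

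Transcripts of other cells also differed in level between these libraries, in either direction. The summed level of 8 pan-leukocyte markers was 195 to 617 CPM in metastases, against 750 to 1150 CPM in primary tumours 1, 2, 3 and 5 and 27.8 to 110 CPM in primary tumours 4 and 6. Of the 8, only Was was at 0 in a primary tumour, tumour 4, and it had 4 counts in tumour 6. With the mean log2 CPM of these markers as a covariate, Lck (log2 fold change -2.11, adjusted p = 0.00134), Ccl5 (-2.72, 0.000153) and Gzmb (-3.37, 0.0239) fell, 3 of 10 beside 8.82% of all genes. Prf1 (-3.79, 0.0560), Nkg7 (-2.10, 0.0863), Gzma (-2.26, 0.371) and Cd8a (-0.86, 0.469) did not pass with it. Cd3e, Cd3g and Cd4 had positive values of 0.40, 0.09 and 0.51 with that covariate and did not pass either. The 12 skeletal muscle genes summed to 13.3 to 3750 CPM in metastases, against 2.59 to 9950 CPM in primary tumours, and 9 of the 12 fell. With their mean as a covariate 2 of 10 fell, Lck and Ccl5, beside 11.8% of all genes. The 12 lung epithelium genes summed to 74.7 to 14000 CPM in metastases, against 1.61 to 175 CPM in primary tumours, and 11 of 12 rose. With that covariate 3 of 10 fell, beside 3.15% of all genes, while Gzmb (adjusted p = 0.0617) and Nkg7 (0.0549) did not pass.

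The cytotoxic and the lineage genes were then compared by the mean log2 CPM of each 5 in every library. Lineage means ran from -2.06 to 0.79 in metastases (median -0.81), against -3.17 to 2.25 in primary tumours (median 1.04). Cytotoxic means ran from -2.52 to 0.43 in metastases (median -1.68), against -2.74 to 4.82 in primary tumours (median 1.80). The cytotoxic mean minus the lineage mean was 0.06 or less in all 14 metastases, with a lowest value of -1.60. In primary tumours 1 to 6 it was 0.82, 3.56, 3.74, 0.51, -0.92 and -0.16. Primary tumours 4 and 6 lie near the limit of detection, where such a difference reflects the prior count as well as the genes. These means are not scaled per kilobase. Exon lengths were 2929 to 4080 bases for the lineage genes and 914 to 2584 bases for the cytotoxic genes. The sign of the difference within a library therefore reflects gene length too, and only comparisons between libraries are read from it.

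**Figure D3:**
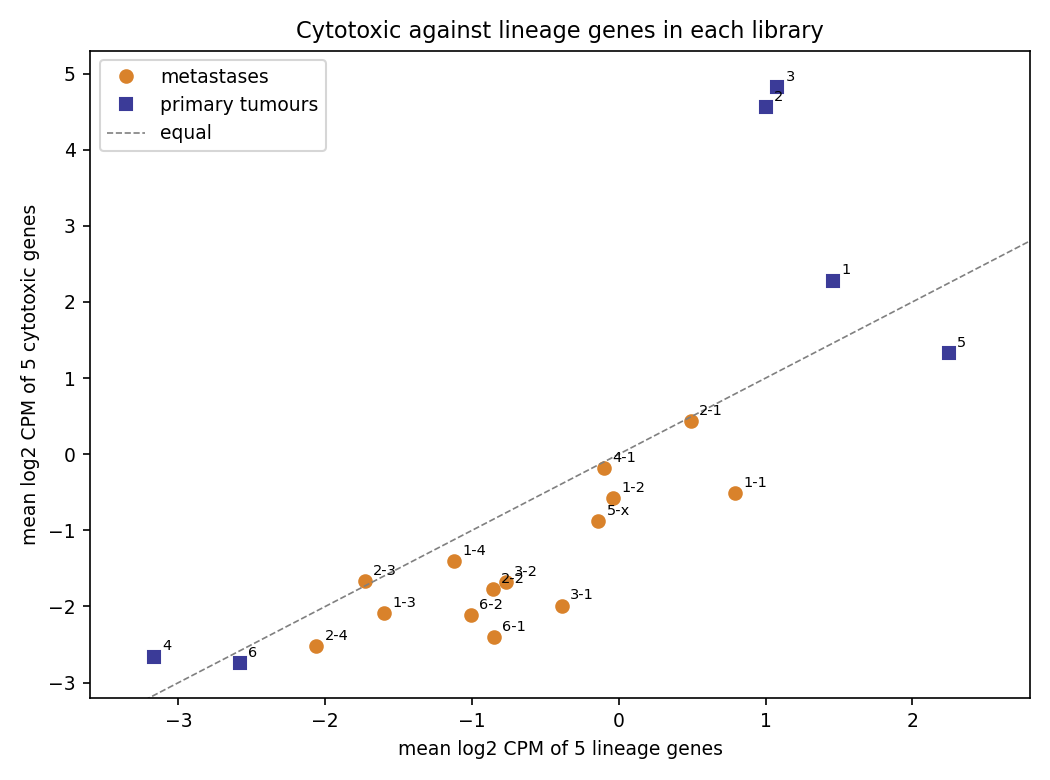
Each point is 1 library, with the mean log2 CPM of the 5 lineage genes across and that of the 5 cytotoxic genes up; circles are metastases, squares primary tumours and the dashed line marks equal means. The metastases lie at most 0.06 above the line, primary tumours 2 and 3 lie 3.56 and 3.74 above it, and primary tumour 5 lies below it. CPM is not scaled by exon length here, so the side of the line also reflects gene length. Points are to be compared with each other.

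Among primary tumours 1, 2, 3 and 5 lineage and cytotoxic genes were highest in different tumours. Primary tumour 5 was the highest of the 4 for all 5 lineage genes, with Cd8a in primary tumour 3 close to it at 3.92 against 4.36 CPM. Gzma, Gzmb, Prf1 and Nkg7 shared 1 order, with primary tumour 3 highest, then 2, then 1, and primary tumour 5 lowest. From the highest to the lowest of these 4 tumours Prf1 spanned 68.8-fold, Gzma 37.0-fold, Gzmb 16.2-fold and Nkg7 3.65-fold. Lineage genes spanned 1.57-fold for Lck, 1.70-fold for Cd8a, 3.03-fold for Cd3g, 3.83-fold for Cd3e and 3.93-fold for Cd4. Ccl5 followed neither order, with primary tumour 1 highest and a span of 2.29-fold. There is 1 library for each primary tumour, so these orders have no replicate check.

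**Figure D4:**
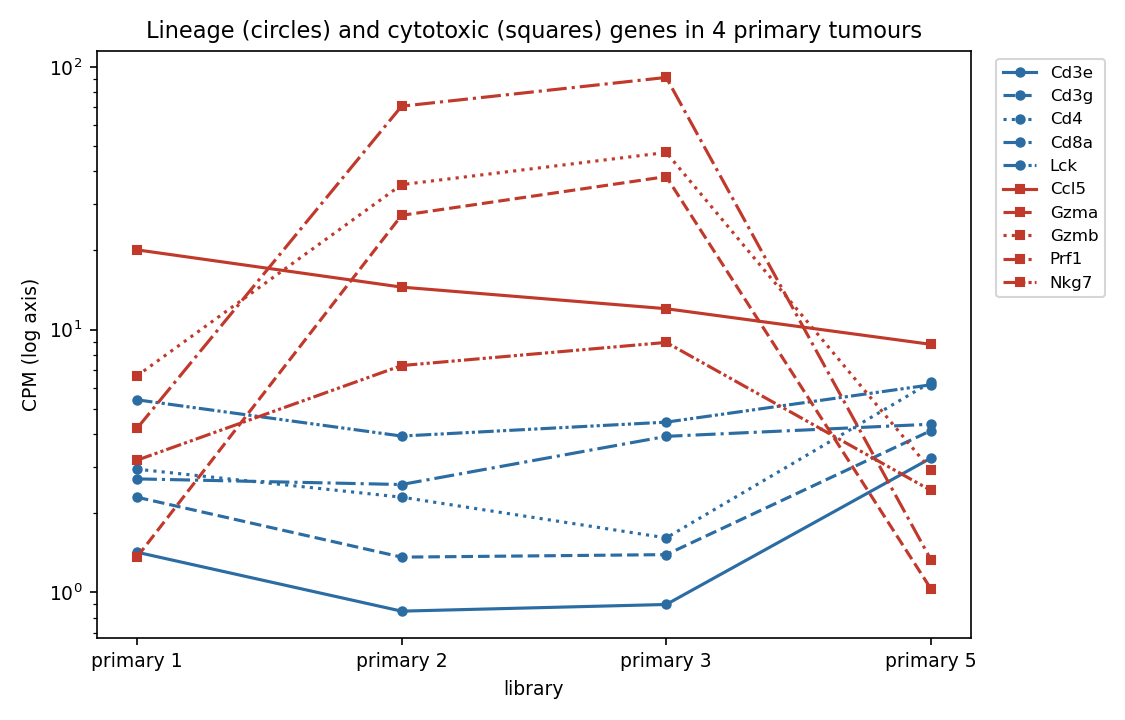
CPM on a log axis in primary tumours 1, 2, 3 and 5, with circles for lineage genes and squares for cytotoxic genes; each line joins the values of 1 gene and is to be read within that gene. Prf1 had 91.1 CPM in primary tumour 3 and 1.33 in primary tumour 5, while all 5 lineage genes were highest in primary tumour 5.

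Other genes of the same cells followed these tumours in different ways. Of 31 other T cell receptor and lineage genes 23 were highest in primary tumour 5 among these 4 tumours, beside 31.6% of all genes with a mean of at least 1 CPM. Of 23 NK receptor and factor genes 10 were highest in primary tumour 3 (29.6% of all genes) and 4 in primary tumour 5. Ncr1, the NK receptor NKp46, had 3.26, 5.84, 7.16 and 0.677 CPM in primary tumours 1, 2, 3 and 5, and Klrb1c, the NK1.1 receptor gene, had 1.18, 3.39, 4.76 and 0.118 CPM, both chosen after their values were seen. Klrk1, chosen likewise, had 6.84, 5.44, 7.29 and 4.77 CPM in these tumours, and 6 NK genes were highest in primary tumour 1 and 3 in primary tumour 2. Of 10 mast cell markers 8 were highest in primary tumour 3, where Cma1, a mast cell chymase, had 63.5 CPM. Cma1 had 9.76, 45.4 and 8.07 CPM in primary tumours 1, 2 and 5. The part of NK or mast cells in the levels of the granule genes was not tested.

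Granzymes C to G, which lie in the same cluster as Gzmb in mouse, were high in the same tumours. Gzmf had 7.72, 213, 331 and 0.913 CPM in primary tumours 1, 2, 3 and 5, and at most 0.748 CPM in any metastasis. All 4 tested genes of this group fell, with Gzmd (log2 fold change -8.09 ± 1.04, edgeR adjusted p = 0.000807), Gzmf (-7.90, 0.00169) and Gzme (-6.77, 0.00256) of smallest p. All 5 tested without sets 4 and 6 fell. Gzmc, at 1.09 CPM, had the highest level of this group in any metastasis. The genes thus passed the filter on low counts mainly through primary tumours, which favours falls among those tested. How many of them fell is therefore no separate evidence. These genes are near-identical copies, so their counts may be split between them in ways that cannot be told.

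Differences between metastases and their primary tumour varied between the sets. The level of the primary tumour is part of each difference. Cytotoxic means varied more over primary tumours (-2.74 to 4.82) than over metastases (-2.52 to 0.43). Dependence on the primary tumour was not tested. In sets 1, 2, 3 and 5 the lineage mean of the metastases minus that of the primary tumour was -1.95, -2.04, -1.66 and -2.39 log2 CPM, a narrow range. The cytotoxic mean differed by -3.42, -5.94, -6.66 and -2.21 log2 CPM in the same sets. In sets 4 and 6 the lineage difference was 3.07 and 1.65 and the cytotoxic difference 2.49 and 0.48. Cytotoxic minus lineage differences averaged -1.99 ± 2.02 log2 CPM (SD, n = 6 sets) and were negative in 5 of 6 sets, with set 5 at 0.18. Sets 1, 2 and 3 had -1.47, -3.90 and -5.00. Sets 4 and 6 had -0.59 and -1.17, where the primary tumours lie near the limit of detection and the values depend on the prior count.

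**Figure D5:**
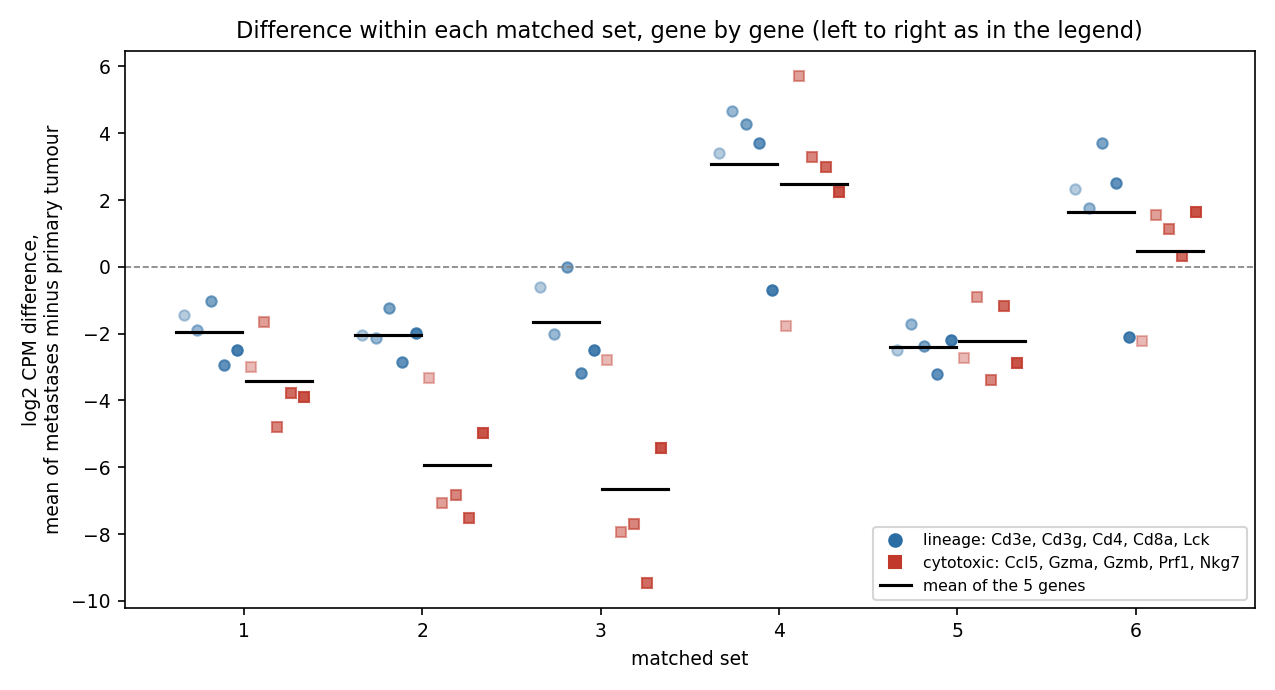
Points give, for each gene and matched set, the mean log2 CPM of the metastases minus that of the primary tumour; circles are lineage genes, squares cytotoxic genes and black bars the mean of each 5. Differences lie below 0 in sets 1, 2, 3 and 5 apart from Cd4 in set 3 at 0.00, and above 0 in sets 4 and 6 for every gene but Lck and Ccl5.

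The opposite direction in sets 4 and 6 came with primary tumours near 0. In metastasis 4-1 Gzma was 20.5-fold above the limit of primary tumour 4, taking 3 counts as the limit of a count of 0. On that scale Cd3g was 9.80-fold, Cd4 7.39-fold, Cd8a 4.81-fold, Cd3e 3.88-fold, Gzmb 3.51-fold, Prf1 2.77-fold and Nkg7 1.48-fold above it. In set 6 the metastases averaged 3.04-fold above the limit of primary tumour 6 for Cd8a and 2.59-fold for Cd3e. The values for Cd3g, Gzma and Nkg7 were 1.53-fold, 1.34-fold and 1.37-fold. Counting error of the metastases is not in these folds, so they are no lower bounds. Some rest on few counts, such as 8 of Nkg7 in metastasis 4-1 and 2 and 7 of Gzma in metastases 6-1 and 6-2. The lineage mean was -1.01 to -0.10 log2 CPM in the 3 metastases of sets 4 and 6 and -2.06 to 0.79 in the other 11. Gzma at 3.29 CPM in metastasis 4-1 lay above the 0.645 CPM that was the most in those 11, and Ptprc at 261 CPM above their 162 CPM. Ccl5 kept 106 and 84 counts in primary tumours 4 and 6, and Lck 17 and 149. The metastasis minus primary tumour difference of Ccl5 was -1.78 log2 CPM in set 4 and -2.23 in set 6.

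The metastases of 1 set differed among themselves. In set 2 the range over 4 metastases had a median of 3.02 log2 CPM over the 10 genes, and in set 1 of 2.22. Pairs in sets 3 and 6 ranged over medians of 0.83 and 0.30. Metastasis 2-1 was the highest of set 2 for all 10 genes, and metastasis 1-3 the lowest of set 1 for all 10. Metastasis 2-1 also held 121 CPM of Ptprc, the highest of its set, where metastasis 2-4 held 30.9 CPM, the lowest. Between the 12 metastases of sets 1, 2, 3 and 6, 0 of the 10 genes differed by set (edgeR, adjusted p from 0.212 to 0.954), also at an unadjusted p under 0.05. By DESeq2 0 passed as well, with 1 at an unadjusted p under 0.05. Of all 19919 genes tested 0.321% differed by set in edgeR, and 5870 had an unadjusted edgeR p under 0.05. DESeq2 called 4890 of 19492 genes and had 7621 at an unadjusted p under 0.05.

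Of 29 other T cell receptor and lineage genes tested, 1 rose and 0 fell. The gene that rose, Tcf7, encodes the factor TCF-1 of naive and memory T cells, which other tissues also express. Its level was 19.0 ± 2.43 CPM in metastases and 7.28 ± 5.83 CPM in primary tumours (SD, log2 fold change 1.71 ± 0.377, edgeR adjusted p = 0.00858). Cd96 (-2.15 ± 0.784, adjusted p = 0.0790) and Cd8b1, the partner chain of Cd8a (-2.01 ± 0.904, 0.154), did not pass. In all, 12 of the 31 listed genes, among them Cd3d, Trac and Zap70, had 0 counts in both primary tumours 4 and 6. Without sets 4 and 6, 6 of 29 fell and 1 rose, with a median log2 fold change of -1.46 against 0.02 over all genes.

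Of 16 NK receptor and factor genes tested 3 fell and 0 rose. They were Klra7 (log2 fold change -3.96 ± 0.606, edgeR adjusted p = 0.00141), Klre1 (-2.38 ± 0.729, 0.0401) and Eomes, a T-box factor of NK and killer T cells (-2.15 ± 0.662, 0.0408). Eomes had 0.414 ± 0.393 CPM in metastases and 1.94 ± 2.22 CPM in primary tumours. Klra genes are near-identical copies, and Klra7 had 83 and 27 counts in primary tumours 4 and 6, where Ncr1, Klrk1 and 7 other NK genes had 0. In these 2 tumours Klra4 had 4907 and 3386 counts and Il18rap 413 and 1457, beside 19 and 13 of Ptprc. Both genes were chosen after their values were seen. Counts of such list genes thus need not come from NK cells. Without sets 4 and 6, 10 of 17 fell and 0 rose. For this and the other lists, the share of all genes that fell was 6.44% over all sets and 5.66% without sets 4 and 6. The primary tumours left out were poor in leukocyte transcripts, so the second share is no even comparison for leukocyte genes.

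Of 18 other effector genes tested 4 fell and 1 rose over all sets, and of 19 tested without sets 4 and 6, 6 fell and 0 rose. Ctsw, a protease of killer lymphocytes (log2 fold change -2.48 ± 0.606, edgeR adjusted p = 0.0140), and Gzmk (-2.34 ± 0.655, 0.0266) fell. Id2, a helix-loop-helix factor of innate lymphocytes and many other cells, rose (1.08 ± 0.299, 0.0257). Ifng, interferon gamma, was at the limit of detection, with at most 9 counts in any library, those of primary tumour 5. Of 13 checkpoint genes 0 passed by edgeR. Pdcd1, the PD-1 receptor, had the smallest p (-1.21 ± 0.609, adjusted p = 0.201), followed by Btla (1.42 ± 0.907, 0.327) and Tnfrsf18 (-0.86 ± 0.684, 0.440). Without sets 4 and 6 Pdcd1 fell (-1.94 ± 0.439, adjusted p = 0.0164), 1 of 13.

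Among 14 genes of the Ccl5 and Cxcl9 to Cxcl11 axis, 2 fell and 1 rose. Cxcl10 fell (log2 fold change -2.92 ± 0.676, edgeR adjusted p = 0.0107), at 12.1 ± 22.7 CPM in metastases and 58.2 ± 54.0 CPM in primary tumours. Cxcl11 fell too (-2.55 ± 0.691, 0.0232), and the decoy receptor gene Ackr2 rose (2.92 ± 0.794, 0.0235). Without sets 4 and 6, 6 of 14 fell and 0 rose. Of 17 interferon gamma response genes 7 fell and 0 rose, and 11 fell and 0 rose without sets 4 and 6. They were led by the immunity-related GTPase Irgm1 (-1.96 ± 0.362, adjusted p = 0.00353) and the MHC class I activator Nlrc5 (-2.11 ± 0.393, 0.00358). Primary tumour 4 had the highest Irgm1 and Cxcl10 levels of all libraries, 420 and 161 CPM, with 0 counts of Cd3e, Cd8a, Gzmb and Ifng.

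Markers of other leukocytes went both ways. None of 8 pan-leukocyte genes passed over all sets by edgeR, with Arhgdib (log2 fold change -0.82), Rac2 (-1.43) and Cd52 (-1.02) of smallest p. Without sets 4 and 6, 6 of 8 fell. Among mast cell markers 5 of 9 fell and 1 rose, with Cma1 (-4.93), Mcpt4 (-4.67) and Tpsb2 (-4.77) of smallest p. Their summed level was 6.69 to 118 CPM in metastases, against 70.8 to 509 CPM in primary tumours 1, 2, 3 and 5, and 5 of the 10 listed, among them Cma1 and Mcpt4, were at 0 in primary tumours 4 and 6. Neutrophil markers rose in 4 of 8 with 0 falling (S100a8 3.91, Retnlg 4.25, Ltf 5.96), and macrophage markers in 3 of 15 with 0 falling (Marco 5.99, Chil3 5.92, Mertk 0.98). Dendritic cell markers rose in 1 of 9, Cd24a (3.56), which lung epithelium also expresses, while Ccr9 (-1.66) and Siglech (-1.98) did not pass. With sets 4 and 6 left out, 0 of 9 dendritic cell markers rose and 4 fell, 3 of 15 macrophage markers rose and 2 fell, 2 of 10 neutrophil markers rose and 0 fell, and 0 of 10 mast cell markers rose and 7 fell. Of 7 B cell genes 0 passed, with Blk at 2.25 and Ms4a1 at 1.85.

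The genes whose log2 CPM ranked most like the lineage mean over the 20 libraries, of 15255 genes with a mean of at least 1 CPM, were Cd2, Gimap3, Ikzf3, Skap1 and Cxcl9. Their Spearman rho was 0.955, 0.955, 0.935, 0.934 and 0.931, and 0.940, 0.940, 0.911, 0.915 and 0.911 without primary tumours 4 and 6. Cd2 is an adhesion receptor of T and NK cells and Skap1 an adaptor of T cells. For the cytotoxic mean the 5 were Gm5150, Bicc1, Cdh11, Fam217b and St8sia4, with rho of 0.973, 0.962, 0.959, 0.952 and 0.950, and 0.934 to 0.963 without these tumours. Cdh11, a cadherin of mesenchymal cells, had a median of 36.2 CPM in metastases and 132 CPM in primary tumours. Libraries of 1 set share a matched primary tumour, so these values are descriptions.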

How the data were processed

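RNA of 14 lung metastases and 6 primary tumours was depleted of ribosomal RNA and made into stranded libraries, per the labels' protocols. Trimmomatic 0.36, STAR and HTSeq with the mm10 build were used, per the submitters' processing notes, which give STAR the doubtful version string 5.5.4b. The authors deposited whole-number counts per gene with no normalization. Which annotation and strand setting HTSeq had is not given in the sources used here, and reads of overlapping genes or near copies may be split.

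From the counts, symbols were matched through GENCODE vM21 (51633 of 51826 identifiers; 0.0170% of counts had none). edgeR 4.0.16 with filterByExpr (minimum count 10), TMM factors and robust quasi-likelihood fits tested metastases against primary tumours with the matched set as a block, and differences between sets among 12 metastases. Benjamini-Hochberg adjustment ran over all genes tested, with a threshold of 0.05, and "rose" and "fell" are used only past it. log2 CPM has a prior count of 2. Set differences of single genes had an exact two-sided sign-flip test over 6 sets (64 sign patterns), unadjusted and computed for each of the 10 genes. DESeq2 1.42.0 and limma 3.58.1 were alternatives in R 4.3.3. The fits were also run on simulated counts. Those were drawn independently for each library, so they cannot test whether metastases of 1 set are independent. Counting limits cover counting error only.

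The members and lists were chosen with earlier results of these data known. Named genes were the 10 members, the 3 tested genes of smallest p in each list that is not a tissue index, and the 5 genes most like each class mean (a few of these are not reported here); others are said to be chosen after their values were seen, and genes at 0 in primary tumours 4 and 6 are named as such. Pairing comes from the labels, which name the primary tumour of each metastasis. Deviations of metastases and primary tumour of 1 set from the group means correlated by 0.371, 0.0462, -0.13, 0.227, -0.142 and 0.0457 in sets 1 to 6 (1000 genes).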

Additional observations from a re-analysis of the deposited data

Results flagged for a closer look

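Values below were picked out by rule. Within groups of 4 to 10 libraries, 30 gene and group combinations were looked at for a library far from the others, and 3 were found; chance gives about 1 in 20. All 3 were metastasis 2-1 among the 4 metastases of set 2, with 1.46 CPM of Gzmb, 1.26 CPM of Prf1 and 0.926 CPM of Nkg7. Metastasis 2-1 also had the most Ptprc of its set.

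In 15 combinations of gene and set, the log2 CPM of every metastasis was above that of its primary tumour although the metastases of other sets all lay below theirs. The difference between the sets was not tested. Set 4, with 1 metastasis, had metastasis minus primary tumour differences in log2 CPM of 3.42 for Cd3e, 4.67 for Cd3g, 4.28 for Cd4, 3.70 for Cd8a, 5.71 for Gzma, 3.29 for Gzmb, 2.99 for Prf1 and 2.23 for Nkg7. Set 6, with 2 metastases, had 2.34 for Cd3e, 1.75 for Cd3g, 3.72 for Cd4, 2.52 for Cd8a, 1.54 for Gzma, 1.13 for Gzmb and 1.65 for Nkg7. The metastases of both sets 2 and 5 lay below their primary tumours for Cd4, those of sets 3 and 5 for Cd3e, and those of sets 1, 2, 3 and 5 for the others. Primary tumours 4 and 6 had 0 or 1 count of each of these genes, so the sizes depend on the prior count. In set 6, both metastases for Gzmb and metastasis 6-1 for Gzma lay under the 0.101 CPM that 0 counts in primary tumour 6 allow.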

How the results depend on the processing

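Ccl5 fell under all 31 alternatives, and Lck under 29, with adjusted p of 0.0905 for metastasis 1 of each set alone (log2 fold change -1.60) and 0.0557 for summed metastases (-1.97). The number of the 10 genes that fell was 3 with the lung epithelium index, 2 with the skeletal muscle index and 3 with the pan-leukocyte index as a covariate, 1 with metastasis 1 alone, 1 with summed metastases and 2 with the set as a random effect in limma voom. With no replicate block 7 fell, with DESeq2 6, with limma voom 5 and with no filter on low counts 4. Of all genes, 1263, 1861 and 1403 of 18452 fell under the first 3 of these settings, and 992 of 41531 with no filter. As a random effect the set gave 1239 of 18452. Leaving out 1 set or metastasis gave 2 to 7, with 2 without set 1 and 2 without set 2. Calls over all genes, 2543 in the main comparison, were 1426, 5050 and 3977 with those covariates in turn, 415 with metastasis 1 alone, 360 summed, 4171 by DESeq2, and 999 (without set 1) to 3598 with libraries left out. Signs turned for Cd3e with the muscle index (1.99), the pan-leukocyte index (0.40) and metastasis 1 alone (0.58), and for Cd3g with the first and second of these (1.38 and 0.09). They also turned for Cd8a (1.27) and Nkg7 (0.04) with the muscle index. Cd4, close to 0, was 2.26 and 0.51 with the muscle and pan-leukocyte indices, 0.76 with metastasis 1 alone, 0.32 summed, 0.07 in limma voom, 0.66 with the random effect, and -0.52 (without set 6) to 0.38 (without set 2) with 1 set or metastasis left out and -1.03 without sets 4 and 6, positive also without sets 1 (0.14) and 5 (0.23) and metastases 1-3 (0.02) and 2-3 (0.00). The mean set difference of Cd3e and Cd3g was -0.13 and -0.22 with a prior count of 2 and 0.34 and 0.27 with 0.5. Genes differing between sets were 64, against 164 with no filter, 13 with the pan-leukocyte index, 4890 by DESeq2 and 0 to 5602 with 1 metastasis left out, with 0 of the 10 genes in each. Cytotoxic minus lineage averaged -2.55 (without sets 4 and 6) to -1.39 (without set 3) under all 13 alternatives, 8 of them chosen after seeing the data. The cause of these changes was not tested.

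Counts of these genes in metastases were low (1 to 57 for Cd3e, 0 to 38 for Prf1). The fit takes metastases of 1 set as independent once the set is in the model, and 6 primary tumours carry the comparison.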

Other observations

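Read per 100 counts of Ptprc, Prf1 ran from 0 to 1.04 in the 14 metastases (median 0.297), against 0.653 to 37.7 in primary tumours 1, 2, 3 and 5 (median 15.3). Gzmb ran from 0.101 to 1.21 in metastases (median 0.216), against 1.44 to 19.5 in those primary tumours (median 8.36). Ccl5 overlapped on that scale, at 0.615 to 5.57 in metastases (median 1.91), against 4.33 to 6.01 in primary tumours (median 5.38). Cd3e had similar medians of 0.503 in metastases and 0.389 in primary tumours, and Cd4 had 1.54 and 0.900 in these groups. Cd8a had 0.441 in metastases and 1.34 in primary tumours. Primary tumours 4 and 6 held 19 and 13 Ptprc counts and were left out of these ratios. These ratios were not tested.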
